A study of Mus musculus with 12 samples.

Results

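Natural killer (NK) cells of 6 mouse mammary tumours were described from single-cell RNA sequencing. They were taken as the cells that the authors' deposited annotation calls NK in both its broader and its finer column, in the libraries enriched for CD45, the surface antigen of leukocytes. The rule found 510 cells, of 54955 cells in the 6 CD45 libraries and of 115612 cells in all 12 libraries of the series. They were 89, 132, 132, 70, 49 and 38 cells in the tumours of Clone E, Clone EM1, Clone EM2, Clone EM3, Clone M and Parental 4T1, and values for the 6 tumours are listed in this order throughout.

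All tumours came from 4T1, a mouse line used as a model of triple-negative breast cancer. Clones E, EM1, EM2, EM3 and M were each derived from a single 4T1 cell and are described as covering the range from epithelial to mesenchymal states, and Parental 4T1 is the uncloned line. All were grown in the mammary fat pad of female BALB/c mice, which have a complete immune system and which the labels give as 9 to 11 weeks of age. Every group is 1 tumour, so a difference between tumours cannot be told apart from the spread between mice, and no p-value is given between tumours. Each tumour was digested enzymatically and gave a Total library and a CD45 library of cells bound by magnetic beads.

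NK cells are innate lymphocytes that kill transformed or infected cells without rearranged antigen receptors. Germline-encoded activating and inhibitory receptors, many of them in the Klr and Ncr families, set their response, and activating receptors signal through small adaptors that recruit Syk-family kinases. Killing runs through granules that hold perforin and granzymes, and NK cells also secrete interferon gamma and chemokines that draw dendritic cells and other leukocytes. The transcription factors Eomes and T-bet direct their maturation, and interleukins 2, 12, 15 and 18 are known to activate them.

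NK cells were a small share of the CD45 cells in every tumour. In order, NK cells made up 0.839% (95% Clopper-Pearson interval 0.674 to 1.03), 1.42% (1.19 to 1.68), 1.48% (1.24 to 1.75), 0.633% (0.492 to 0.801), 0.655% (0.485 to 0.865) and 0.568% (0.402 to 0.779) of CD45 cells. The intervals of EM1 and EM2 lay above those of the other 4 tumours. This separation was lost when only cells with at least 650 genes were counted. Clone E and M then had 0.947% (0.757 to 1.17) and 1.03% (0.757 to 1.36), which overlapped EM1 at 1.36% (1.10 to 1.66) and EM2 at 1.41% (1.15 to 1.71). Over NK cells and the 5 annotated T cell subtypes together the order was another one. There the NK share was 4.97% (4.01 to 6.08), 4.40% (3.70 to 5.20), 7.15% (6.02 to 8.42), 3.93% (3.07 to 4.96), 7.04% (5.25 to 9.20) and 4.63% (3.30 to 6.31). EM2 and M were highest on that scale, and their intervals lay above those of EM1 and EM3 but overlapped those of Clone E and the parental tumour. The bead enrichment can itself set shares of a library, and all intervals cover counting error only.

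**Figure D1:**
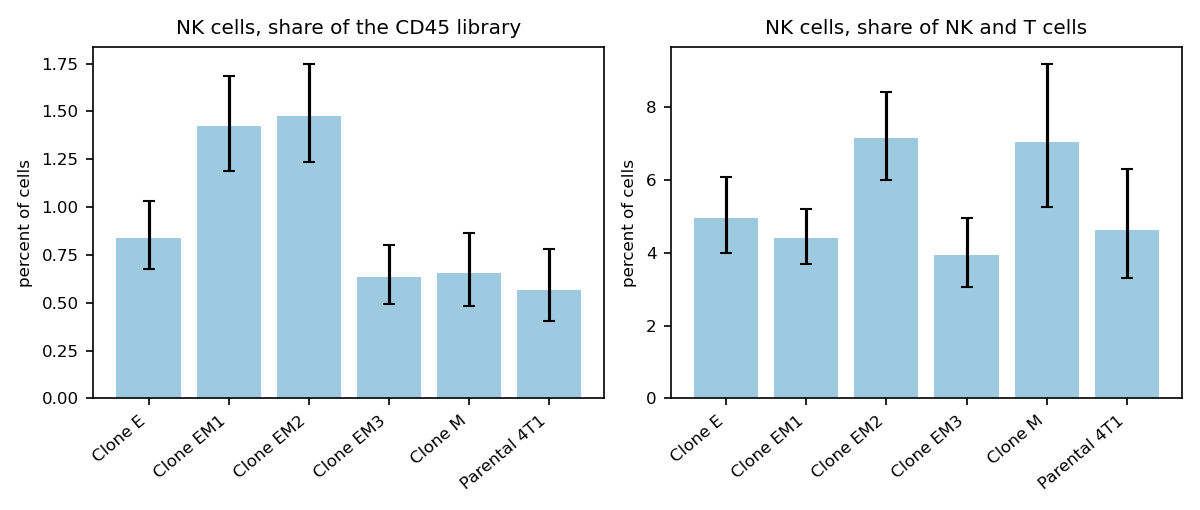
NK cells as a percent of all cells of the CD45 library (left panel) and as a percent of NK cells and the 5 T cell subtypes (right panel) in each of the 6 tumours, with 95% Clopper-Pearson intervals as error lines. EM1 and EM2 stand highest at 1.42% and 1.48% on the left, and EM2 and M at 7.15% and 7.04% on the right.

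After 2 cells of EM3 called doublets had been left out, 508 NK cells with 767541 UMIs (unique molecular identifiers, 1 per captured RNA molecule) were used. Each tumour's NK cells held 58268 to 173806 UMIs, with a median of 1036 to 1792.5 UMIs per cell. Levels are given in CPM, the UMIs of a gene summed over the NK cells of a tumour and scaled to the same total in every tumour. Precision is therefore lowest in the parental tumour, where 1 UMI equals 17.2 CPM. The CD45 libraries as a whole held 28083101 to 57116299 UMIs. Over the 12 libraries, 14 pairs of libraries shared 12.193% to 19.092% of the first 16 bases of their cell barcodes, with no whole barcode in common. These pairs link E with EM3 and EM1 with EM2, and M and the parental tumour each only with themselves. What the sharing stems from was not tested.

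The label was checked against markers of NK cells and of the other leukocytes a CD45 preparation can hold. The summed level of Ncr1, Klre1, Gzma and Eomes was 1735 to 6578 CPM in NK cells, against 329 to 549 CPM in Gzmb+ Cd8+ T cells of the same tumours. No marker of this list was at 0 in the NK cells of any tumour. The 10 T cell markers summed to 333 to 600 CPM in NK cells and to 5453 to 8331 CPM in Gzmb+ Cd8+ T cells. Of 5 mast cell and basophil markers, 1 UMI was found in M and none in the other 5 tumours. Markers of B and plasma cells summed to 0 to 77.9 CPM, while the antibody genes Igkc, Ighg1 and Igha, outside that list, had 0 to 474, 0 to 318 and 12.99 to 134 CPM in the same NK sums. Granulocyte markers reached 1133 to 4659 CPM in NK cells, highest in EM3 and Clone E, against 916 to 1736 CPM in Gzmb+ Cd8+ T cells. Macrophage and monocyte markers had 1663 to 4538 CPM against 1859 to 3400 CPM, and dendritic cell markers 1116 to 2445 CPM against 1456 to 2302 CPM. Markers of gamma-delta T cells summed to 137 to 372 CPM, nearly all of it Trdc, and markers of ILC2 and ILC3 to 209 to 475 CPM, most of it Gata3. The part of RNA from other cells in the results was not tested.

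The deposited reference-based labels, assigned cell by cell, called 229 of the 510 cells NK cells and 253 innate lymphoid cells (ILC). The remaining 28 were called neutrophils (9), NKT cells (7), macrophages (6), gamma-delta T cells (3), monocytes (2) or dendritic cells (1). A further 331 cells carried NK in the finer column only and were other myeloid cells in the broader one. Those cells were outside the rule, 241 of them had a dendritic cell reference label, and their NK marker list came to 0 to 6 UMIs per tumour.

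NK cells were compared with 5 T cell subtypes of the same tumours, which the annotation names by a marker: Foxp3+, Cd44+ and Cd44- cells among Cd4+ T cells, and Gzmb+ and Lef1+ cells among Cd8+ T cells. Counts were summed per tumour and class and tested with edgeR's quasi-likelihood method, with tumour as a block. A gene was called at an adjusted p under 0.05 and at least a 2-fold difference. The classes were annotated from these same cells, so an adjusted p below describes how steady a difference was over tumours and is not independent evidence that the classes differ. Of 7008 genes tested, 391 were higher in NK cells than in Gzmb+ Cd8+ T cells (5.58%) and 350 were lower (4.99%). The counts were 283 and 271 against Lef1+ Cd8+ T cells (4.04% and 3.87%), 384 and 481 against Cd44+ Cd4+ (5.48% and 6.86%), 646 and 497 against Cd44- Cd4+ (9.22% and 7.09%), and 460 and 601 against Foxp3+ Cd4+ T cells (6.56% and 8.58%). Against all 5 subtypes at once, 89 genes were higher in NK cells (1.27%) and 73 were lower (1.04%). The 5 comparisons share the NK cells, and the counts are not independent of each other. Fitting only the 2 classes of a comparison gave 48 and 26 genes against all 5. Such a fit leaves fewer sums from which to estimate the spread. It also filters the genes anew, and only 16 of the 38 genes named against T cells had a value in it.

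Among the 89 genes, Ncr1, which encodes the activating receptor NKp46, had the largest distance to its nearest T cell subtype. It had 144, 201, 242, 122, 186 and 172 CPM in NK cells. The highest value of Ncr1 in any T cell sum was 8.42 CPM, so the groups did not overlap. Against the nearest subtype, Lef1+ Cd8+ T cells, Ncr1 was higher by 4.83 ± 0.43 on the log2 scale (approximate SE derived from the test statistic, adjusted p = 2.45e-13). Gzmb+ Cd8+ T cells held no UMI of Ncr1, and with a floor of 3 UMIs over that group Ncr1 was at least 202-fold higher in NK cells.

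Receptors of the killer cell lectin-like family followed at low levels. Klrb1a, an activating receptor of the NKR-P1 group, had 32.5 to 105 CPM in NK cells and at most 8.38 CPM in any T cell sum, with a nearest difference of 4.47 ± 0.66. Klrb1b, an inhibitory receptor of that group that binds Clec2d, had 39.0 to 103 CPM and a nearest difference of 3.49. Klra3, a Ly49 receptor for class I molecules, had 26.0 to 91.4 CPM and a nearest difference of 3.88. Klri1 had 26.1 to 190 CPM and a nearest difference of 2.28 over Lef1+ Cd8+ T cells. Klri2 was closer to T cells, with a nearest difference of 1.12 over Gzmb+ Cd8+ T cells. The Klra, Klrb1 and Klri genes have near-identical copies, so the split of reads between copies is uncertain. Cd244a, the SLAM-family receptor 2B4, had 26.1 to 69.0 CPM and a nearest difference of 2.04.

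Of 20 tested genes in the list of NK receptors and lineage genes, 12 were higher than in Gzmb+ Cd8+ T cells and 1 was lower, with a median log2 difference of 1.91 against −0.02 over all genes tested. Over all genes, 5.58% were higher and 4.99% lower. The lower gene was Cd96, a nectin-binding receptor, at 22.8 to 93.0 CPM in NK cells. Of the list, 7 genes were higher than in every T cell subtype, beside 1.27% of all genes. Receptors shared with CD8 T cells did not pass against Gzmb+ Cd8+ T cells. Klrd1 (CD94) had 189 to 287 CPM in NK cells and differed by −0.47 ± 0.19 (adjusted p = 0.0719). Klrk1 (NKG2D), which sees stress ligands, had 206 to 444 CPM and differed by 0.17 ± 0.20 (adjusted p = 0.596). The granule membrane gene Nkg7 differed by −0.36 ± 0.24 (adjusted p = 0.338). Klrg1, an inhibitory receptor of mature NK cells, was higher than in 4 subtypes but had 45.5 to 206 CPM in NK cells against 630 to 1145 CPM in Foxp3+ Cd4+ T cells, a difference of −3.33 ± 0.21.

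**Figure D2:**
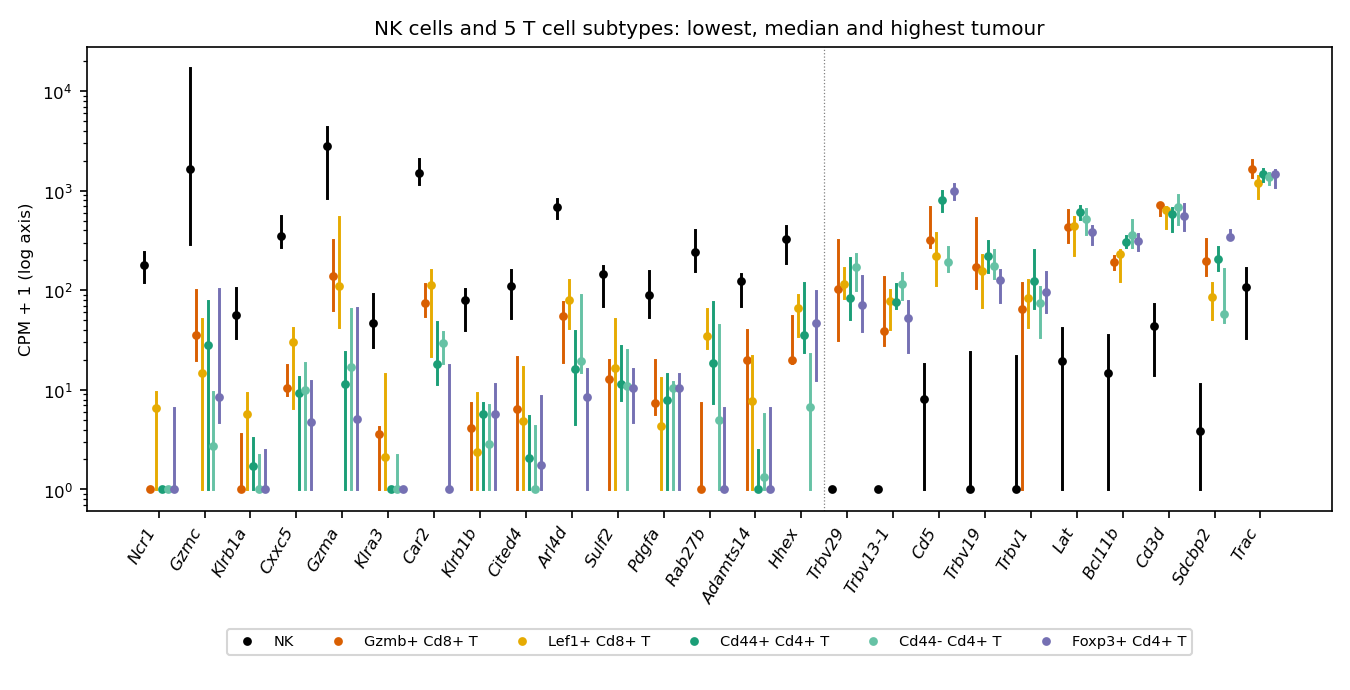
CPM + 1 on a log axis for the 15 genes highest and the 10 genes lowest in NK cells against every T cell subtype, in NK cells and the 5 T cell subtypes. Points are medians over tumours and lines run from the lowest to the highest tumour. Ncr1 spans 122 to 242 CPM in NK cells, with no T cell sum above 8.42 CPM.

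Adaptors and kinases of NK receptors were among the signalling genes that differed. Tyrobp (DAP12), an adaptor whose cytoplasmic motif recruits Syk and Zap70, had 1973, 1610, 1600, 1801, 1126 and 1339 CPM in NK cells. All T cell sums lay between 174 and 744 CPM, below every NK value, and the nearest difference was 2.01 ± 0.13 (adjusted p = 2.16e-21). Fcer1g, the adaptor of NKp46 and of the Fc receptor, had 630 to 961 CPM against 158 to 413 CPM, with a nearest difference of 1.48 ± 0.13. The kinases Syk and Lyn and the phospholipase Plcg2 were also higher than in all 5 subtypes, with nearest differences of 1.31, 1.30 and 1.08.

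Plcg1, the phospholipase of T cell receptor signalling, showed the reverse of Plcg2. Plcg1 had 6.49 to 34.5 CPM in NK cells and 88.0 to 298 CPM in T cells, and was lower than in every subtype by 3.25 or more on the log2 scale. Lat, the scaffold that the T cell receptor kinases phosphorylate, had 0 to 41.3 CPM in NK cells and 227 to 708 CPM in T cells, with a nearest difference of −4.14 ± 0.26. Lat2, a related scaffold, was higher than in the other 4 subtypes and differed by 0.88 ± 0.21 from Gzmb+ Cd8+ T cells, under the 2-fold limit. The kinase Txk was higher than in 4 subtypes. Lck, Zap70 and Fyn, kinases of T cell receptor signalling, and the exchange factor Vav1 were called in no comparison. They differed from Gzmb+ Cd8+ T cells by −0.44 ± 0.11, −0.98 ± 0.14, −0.51 ± 0.14 and 0.12 ± 0.18, all under the 2-fold limit. Over this list, 6 of 21 tested genes were higher and 3 lower than in Gzmb+ Cd8+ T cells, with a median of 0.12, and 5 higher and 2 lower than in every subtype. Over all genes the shares were 5.58% and 4.99% in the first case and 1.27% and 1.04% in the second.

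Genes of the T cell receptor and T cell lineage were mostly lower in NK cells. Of 18 tested genes of the T cell receptor and T cell lineage, 14 were lower than in Gzmb+ Cd8+ T cells and none higher, with a median of −3.92, and 11 were lower than in every subtype. They were a small part of the 350 and 73 lower genes of those comparisons, which are 4.99% and 1.04% of all genes. Cd5, which dampens T cell receptor signals, had 5.75, 12.99, 6.53, 7.60, 0 and 17.2 CPM in NK cells and 112 to 1182 CPM in T cells. Bcl11b, the factor that commits progenitors to the T lineage, had 0 to 34.3 CPM against 124 to 510 CPM. Cd3d and Trac had nearest differences of −3.76 and −3.65, and Trac kept 32.5 to 167 CPM in NK cells. Sdcbp2, a syntenin, rested on 3 UMIs in NK cells and was 14.3-fold lower than in Cd44- Cd4+ T cells (counting interval 4.82 to 69.8). Themis, which sets T cell receptor thresholds in the thymus, rested on 1 UMI in NK cells and was 166-fold lower than in Gzmb+ Cd8+ T cells (29.7 to 6562).

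Cd8a, Cd8b1 and Nrn1 were among the 10 lowest genes against Gzmb+ Cd8+ T cells. Cd8a was 404-fold lower in NK cells (counting interval 112 to 3340) and Nrn1, which encodes neuritin, was 195-fold lower (54.0 to 1613), each on 2 UMIs in NK cells. In the 5 tumours of that comparison NK cells held no UMI of Slamf1, Slc17a6, Trbv29, Trbv13-1 or Trbv4. With the floor of 3 UMIs, these were at least 19.5, 24.1, 29.8, 14.4 and 19.9-fold lower than in Gzmb+ Cd8+ T cells. The Trbv segments are a family of similar sequences, and reads may be split between them. Trbv29 and Trbv1 were the named genes seen to lose the call when 1 tumour or the smaller sums were left out, and Klra3 had no value without Clone E or without the parental tumour. Trbv29 lost it without EM1, EM2, M or the parental tumour and without sums of fewer than 30 cells, and Trbv1 without EM1, EM2 or EM3.

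Some T cell receptor genes were higher in NK cells in at least 1 comparison. Trbc1 had 1053 to 1421 CPM in NK cells and 343 to 1238 CPM in T cells, and was called higher against Foxp3+ Cd4+ T cells only, by 1.22 ± 0.13. Trbc2 was lower than in all 5 subtypes. The genes are near-identical, so their reads cannot be told apart with certainty. Trdc, the delta chain constant region, had 120 to 351 CPM in NK cells, was higher than in Gzmb+ Cd8+ T cells by 5.90 ± 0.44 and differed by 0.69 ± 0.28 from Lef1+ Cd8+ T cells (adjusted p = 0.0969). Of the gamma chain constant regions, Tcrg-C4 had 19.6 to 124 CPM in NK cells. It was higher than in 4 subtypes, by 2.33 ± 0.44 against Gzmb+ Cd8+ T cells, and differed by −0.03 ± 0.37 from Lef1+ Cd8+ T cells (adjusted p = 0.983). Tcrg-C1 and Tcrg-C2 had 0 to 10.3 and 0 to 38.0 CPM in the same NK sums.

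Of 29 transcription factors tested, 13 were higher than in Gzmb+ Cd8+ T cells and 1 lower, with a median of 0.66, beside 5.58% and 4.99% of all genes. The counts were 9 and 1 against Lef1+ Cd8+, 8 and 6 against Cd44+ Cd4+ (median −0.06), 12 and 6 against Cd44- Cd4+ and 9 and 7 against Foxp3+ Cd4+ T cells (median 0.23), so the lean was not general. Over all genes, those 4 comparisons had 4.04% to 9.22% higher and 3.87% to 8.58% lower. Eomes and Irf8 were higher than in every subtype. Eomes had 1064, 1786, 1431, 813, 630 and 875 CPM in NK cells. Eomes stayed at or below 224 CPM in the T cell sums tested, and the nearest difference was 2.72 ± 0.26 (adjusted p = 9.65e-09 in the subtype with the largest p). Irf8, a factor better known from myeloid development and also required for NK cell maturation, had 4517, 5149, 5010, 3800, 3925 and 3518 CPM. In Gzmb+ Cd8+ T cells Irf8 had 540 to 2281 CPM, a difference of 2.00 ± 0.27, and in the other 4 subtypes 35.2 to 328 CPM. No NK value of Irf8 overlapped a T cell value. Macrophages of the same libraries had 202 to 401 CPM of Irf8 and granulocytes 13.9 to 80.5 CPM, below the NK cells as well.

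Tbx21 (T-bet) was higher than in 4 subtypes and differed by 0.86 ± 0.21 from Gzmb+ Cd8+ T cells, again under the 2-fold limit. Zbtb16 (PLZF), a factor of innate-like lymphocytes, had 137 to 279 CPM in NK cells and 0 to 3.86 CPM in Gzmb+ Cd8+ T cells, a difference of 6.49 ± 0.39. Against Lef1+ Cd8+ T cells Zbtb16 differed by 0.98 ± 0.24. Myb and Nfil3, the latter a factor needed early in NK development, were each higher than in 4 subtypes. Tox, a factor of exhausted T cells and of lymphoid development, was lower by 2.80 ± 0.29 than in Gzmb+ Cd8+ T cells and was lower than in 4 subtypes. Hhex, a homeobox factor outside that list, had 189 to 444 CPM in NK cells and at most 118 CPM in T cells, and its nearest difference was 2.72 ± 0.29. Zbtb10, a zinc finger gene, rested on 1 UMI in Gzmb+ Cd8+ T cells and was 324-fold higher in NK cells (counting interval 56.3 to 12990).

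Of 29 cytokine receptor genes tested, 6 were higher and 2 lower than in Gzmb+ Cd8+ T cells (5.58% and 4.99% of all genes), with a median of 0.10. Against every subtype, 2 were higher and 1 lower (1.27% and 1.04% of all genes). Against Cd44+ Cd4+ T cells 4 were higher and 12 lower (5.48% and 6.86% of all genes). Il18rap, the accessory chain of the interleukin 18 receptor, had 350 to 621 CPM in NK cells and 1.86 to 273 CPM in T cells, with a nearest difference of 1.25 ± 0.23 over Cd44+ Cd4+ T cells. Kit, the stem cell factor receptor, had 426, 390, 431, 342, 713 and 532 CPM in NK cells and at most 336 CPM in T cells, with a nearest difference of 1.52 ± 0.35. Il7r, the interleukin 7 receptor of naive and memory T cells and many ILC, was the gene lower than in every subtype, with 41.3 to 137 CPM in NK cells and a nearest difference of −1.13 ± 0.27. Il2rb, the shared chain for interleukins 2 and 15, had 4359 to 5944 CPM and was higher than in 4 subtypes, with 0.67 ± 0.17 against Gzmb+ Cd8+ T cells. Il21r was lower than in 4 subtypes.

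Xcl1 and Ccl4 were the chemokines higher than in every T cell subtype. Xcl1, the ligand of the Xcr1 receptor on cross-presenting dendritic cells, had 782, 688, 503, 502, 455 and 1236 CPM in NK cells and at most 434 CPM in T cells, with a nearest difference of 2.17 ± 0.41. Macrophages held less than 1 CPM of Xcl1 in every tumour. Ccl4, an inflammatory chemokine, had 334, 877, 268, 106, 41.3 and 292 CPM, so that EM3 and M lay within the T cell range of 0 to 185 CPM. In the parental tumour 1 cell held 76.5% of the Ccl4 UMIs, and without it the value was 68.6 CPM, within that range too. Granulocytes of the same libraries held 675 to 1193 CPM of Ccl4. The nearest difference of Ccl4 was 2.47 ± 0.40, and in NK cells gated from the Total libraries Ccl4 was not higher than in T cells. Ccl5 had 2438 to 13545 CPM in NK cells and did not pass against either CD8 subtype, with 0.81 ± 0.49 against Gzmb+ (adjusted p = 0.275). Of chemokine receptors, Ccr2 was higher than in 4 subtypes and differed by −0.19 ± 0.19 from Foxp3+ Cd4+ T cells, and Cxcr6 was lower than in Gzmb+ Cd8+ T cells by 2.82 ± 0.18. In this list 8 of 16 genes were higher and 2 lower than in Gzmb+ Cd8+ T cells (5.58% and 4.99% of all genes), with a median of 0.95. The counts were 4 and 3 against Lef1+ Cd8+, 5 and 5 against Cd44+ Cd4+, 9 and 2 against Cd44- Cd4+ and 5 and 4 against Foxp3+ Cd4+ T cells, the last with a median of 0.11. Over all genes, 4.04% to 9.22% were higher and 3.87% to 8.58% lower in those 4 comparisons.

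Of 23 adhesion and egress genes tested, 7 were higher and 1 lower than in Gzmb+ Cd8+ T cells (5.58% and 4.99% of all genes), with a median of 0.24. The counts were 3 and 4 against Lef1+ Cd8+, 6 and 5 against Cd44+ Cd4+, 8 and 3 against Cd44- Cd4+ and 8 and 5 against Foxp3+ Cd4+ T cells. Over all genes, 4.04% to 9.22% were higher and 3.87% to 8.58% lower in those 4 comparisons. Itga2 (CD49b), which mouse studies use to mark NK cells, had 20.7 to 52.3 CPM and a nearest difference of 1.64 ± 0.44, Itgax (CD11c) had 34.3 to 145 CPM and 2.43 ± 0.34, and the tetraspanin Cd9 had 457 to 807 CPM and 1.52 ± 0.14. Itga6, a laminin receptor chain, was the gene lower than in every subtype. S1pr1, the receptor that lets lymphocytes leave tissue, had 5.75 to 51.9 CPM in NK cells and 149 to 1605 CPM in the 4 subtypes other than Gzmb+ Cd8+ T cells. S1pr1 was lower than in those 4 and differed by −0.75 ± 0.63 from Gzmb+ Cd8+ T cells (adjusted p = 0.449). Pecam1 and Itgb3, outside the list, were higher than in every subtype, with nearest differences of 1.42 and 1.32, and were chosen for mention after their values had been seen. Pecam1, which endothelial cells also express, had 412 to 610 CPM and made up most of the 412 to 610 CPM of the tumour and stromal marker list in NK cells.

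Genes that divide circulating from tissue-resident NK cells did not all fall on one side. Of 11 tested genes of mature circulating NK cells, 8 were higher than in Gzmb+ Cd8+ T cells and none lower, with a median of 1.73. Over all genes, 5.58% were higher and 4.99% lower in that comparison. Gzma, Prf1 and Irf8 of this list were higher than in every T cell subtype. Zeb2, a factor of terminal maturation, differed by −0.78 and was not called against any subtype. Of 25 tested genes of tissue-resident NK cells and ILC1, 6 were higher and 8 lower than in Gzmb+ Cd8+ T cells, with a median of 0.08. Against Cd44- Cd4+ T cells the contrast between the lists was the other way, with 4 circulating genes higher and 2 lower (median 0.89) and 17 resident genes higher and 3 lower (median 1.85). Over all genes, 9.22% were higher and 7.09% lower there. All these counts set NK cells against T cells and do not compare kinds of NK cell with each other. Against Lef1+ Cd8+, Cd44+ Cd4+ and Foxp3+ Cd4+ T cells, the circulating medians were 0.86, 1.41 and 0.81 and the resident medians 0.23, 0.28 and 0.41. Gzmc and Xcl1 of that list were higher than in every subtype, and Il7r and Inpp4b, a lipid phosphatase, were lower than in every subtype. Itga1 (CD49a), a marker of residency, had 30.4 to 65.3 CPM in NK cells and differed by −0.15 ± 0.33 from Gzmb+ Cd8+ T cells (adjusted p = 0.802). Both lists share members with the receptor, adhesion and effector lists.

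Granule genes gave 5 of 20 tested effector genes higher and 3 lower than in Gzmb+ Cd8+ T cells, with a median of 0.63 (5.58% and 4.99% of all genes). Against the other 4 subtypes 11 to 15 were higher and 0 or 1 lower, beside 4.04% to 9.22% and 3.87% to 8.58% of all genes. The 5 higher genes, Gzma, Gzmc, Prf1, Serpinb6b and Serpinb9, were higher than in every subtype. Gzma, a granzyme with trypsin-like activity, had 3389, 4403, 3671, 1406, 847 and 2214 CPM. No T cell sum reached more than 541 CPM of Gzma, and the nearest difference was 4.12 ± 0.36 over Lef1+ Cd8+ T cells. Prf1, the pore-forming perforin, had 426, 799, 810, 289, 145 and 498 CPM and overlapped Gzmb+ Cd8+ T cells at 47.4 to 380 CPM, with a difference of 1.33 ± 0.22 (adjusted p = 3.34e-05). Serpinb9, an inhibitor of granzyme B that protects the killer cell, had 682 to 1091 CPM against at most 386 CPM in T cells.

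Against Gzmb+ Cd8+ T cells, granzyme genes did not move as a block. Gzmb, the gene that names this subtype, differed by 0.30 ± 0.29 (adjusted p = 0.51). Gzmk was lower by 2.94 ± 0.69 and Gzmf by 2.45 ± 0.46. Gzmd, Gzme and Gzmf were each higher than in the other 4 subtypes, and Gzmb was higher than in 3 subtypes. Over the 5 subtypes Gzmk was higher than in none and lower than in 2. Gzmc to Gzmf are a cluster of similar genes, and their reads may be split. The general machinery of cytotoxic granules, 18 genes tested, had no member higher than in Gzmb+ Cd8+ T cells and 2 lower, Rab27a and Cst7, with a median of −0.21, beside 5.58% and 4.99% of all genes. Rab27b, a paralogue of Rab27a in granule release, was outside that list and had 155 to 399 CPM in NK cells against 3 UMIs in all Gzmb+ Cd8+ T cells, which is 315-fold higher (counting interval 106 to 1539). Against its nearest subtype, Lef1+ Cd8+ T cells, Rab27b was higher by 3.06 ± 0.41.

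The stretches around the starts of Ncr1, Gzma and Gzmc are printed as examples. These genes were among the 5 named genes farthest above every T cell subtype. Klrb1a and Cxxc5 were also among those 5 and are not printed. Each is RefSeq sequence of build GRCm38.p6, from 250 bases before to 50 after the annotated start, read 5′ to 3′ on the gene's strand. Ncr1 lies on the plus strand at chr7:4337465-4337764, Gzma on the minus strand at chr13:113100932-113101231 and Gzmc on the minus strand at chr14:56234608-56234907. Capitals mark AGGTGT (or ACACCT on the other strand), a core of T-box motifs, and TGTGGT (or ACCACA), a core of Runx motifs.
Ncr1: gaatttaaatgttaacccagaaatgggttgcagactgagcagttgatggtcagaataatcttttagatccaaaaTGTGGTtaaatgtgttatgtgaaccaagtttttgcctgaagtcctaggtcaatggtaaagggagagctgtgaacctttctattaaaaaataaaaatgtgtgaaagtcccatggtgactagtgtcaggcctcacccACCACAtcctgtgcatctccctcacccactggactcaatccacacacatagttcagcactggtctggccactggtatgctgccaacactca
Gzma: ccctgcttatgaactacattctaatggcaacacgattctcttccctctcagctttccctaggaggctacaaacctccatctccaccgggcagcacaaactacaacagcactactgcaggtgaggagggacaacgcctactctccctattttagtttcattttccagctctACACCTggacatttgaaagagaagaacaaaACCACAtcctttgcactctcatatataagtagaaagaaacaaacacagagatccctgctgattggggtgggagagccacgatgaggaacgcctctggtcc
Gzmc: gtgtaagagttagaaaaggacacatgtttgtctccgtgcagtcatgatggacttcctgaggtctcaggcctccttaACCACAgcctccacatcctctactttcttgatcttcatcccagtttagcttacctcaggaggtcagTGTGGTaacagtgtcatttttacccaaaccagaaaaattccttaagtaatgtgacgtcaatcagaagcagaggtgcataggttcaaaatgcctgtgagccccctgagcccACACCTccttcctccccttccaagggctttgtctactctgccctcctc
The Ncr1 stretch held the Runx core on both strands and no T-box core, while the Gzma and Gzmc stretches held both cores. Of 27025 genes with such a stretch, 15.7% held AGGTGT and 18.9% TGTGGT on either strand. The shares were 11.9% and 14.8% of the 5597 tested genes with an entry, 10.6% and 24.2% of 66 genes higher than in every T cell subtype, and 25.5% and 21.3% of 47 genes lower than in every subtype, so AGGTGT was not more common among the higher genes. Such matches describe the letters and are no evidence of binding.

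Inhibitory receptors were lower than in Gzmb+ Cd8+ T cells in 7 of 13 tested genes and higher in none, with a median of −1.04. Over all genes, 4.99% were lower and 5.58% higher there. Against Cd44- Cd4+ T cells the counts were the other way, with 7 of 13 higher and none lower and a median of 1.10 (9.22% and 7.09% of all genes). The counts of higher and lower genes were 1 and 2 against Lef1+ Cd8+, 2 and 6 against Cd44+ Cd4+ and 1 and 5 against Foxp3+ Cd4+ T cells, and none was called one way against every subtype. The shares over all genes were 4.04% and 3.87%, 5.48% and 6.86%, and 6.56% and 8.58% in that order. Pdcd1 (PD-1) had 92.1, 188, 52.3, 76.0, 82.6 and 172 CPM in NK cells and 2409 to 3941 CPM in Gzmb+ Cd8+ T cells, a difference of −4.83 ± 0.35 (adjusted p = 3.67e-11). Against Cd44- Cd4+ T cells Pdcd1 differed by 0.15 ± 0.45 (adjusted p = 0.846). Lag3, Havcr2, Ctla4, Cd101, Cd200r1 and Entpd1 were the other 6, with differences of −3.45, −2.54, −1.97, −1.86, −1.43 and −1.04. Tigit had 10.3 to 78.4 CPM and differed by 0.34 ± 0.32. Of 13 costimulatory genes, 2 were higher and 2 lower than in Gzmb+ Cd8+ T cells (5.58% and 4.99% of all genes), with a median of −0.87. The counts were 1 and 3 against Lef1+ Cd8+, 1 and 8 against Cd44+ Cd4+ (median −1.68), 3 and 3 against Cd44- Cd4+ and 2 and 7 against Foxp3+ Cd4+ T cells (median −1.67). In those 4 comparisons 4.04% to 9.22% of all genes were higher and 3.87% to 8.58% lower. With genes at 0 UMIs in 1 class set at the floor of 3 UMIs, the median was −0.32 against Gzmb+ Cd8+ and −1.32 against Foxp3+ Cd4+ T cells. Tnfrsf4 (OX40) was lower than in all 5 subtypes. Tnfrsf4 had 5.75 CPM in Clone E, 34.3 CPM in the parental tumour and 0 in the NK cells of the other 4, against as much as 1424 CPM in T cells.

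Interferon response genes were called more often against the other subtypes than against Gzmb+ Cd8+ T cells, a difference that was not itself tested. Of 22 tested, 1 was higher (Irf7) and 1 lower against Gzmb+ Cd8+ T cells, with a median of −0.13. Against Lef1+ Cd8+ T cells 10 were lower and none higher, with a median of −1.01 (−0.01 over all genes). The counts of higher and lower genes were 1 and 5 against Cd44+ Cd4+, 0 and 8 against Cd44- Cd4+, and 1 and 8 against Foxp3+ Cd4+ T cells. Over all genes, the lower shares were 4.99% (Gzmb+), 3.87% (Lef1+), 6.86% (Cd44+), 7.09% (Cd44-) and 8.58% (Foxp3+). The higher shares were 5.58%, 4.04%, 5.48%, 9.22% and 6.56% in the same order. The interferon-induced GTPases Gbp2 and Igtp were each lower than in 4 subtypes, with Gbp2 lower by 2.64 ± 0.36 than in Lef1+ Cd8+ T cells.

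Of 20 glycolysis and hypoxia genes 3 were higher than in Gzmb+ Cd8+ T cells, Vegfa, Egln3 and Hk2, and none was lower, with a median of −0.19. Against Foxp3+ Cd4+ T cells 2 were higher and 5 lower, with a median of −0.46, and Vegfa alone was higher than in every subtype. Vegfa, the endothelial growth factor, had 489 to 738 CPM in NK cells and at most 227 CPM in T cells, while macrophages held 1062 to 1696 CPM, and the part of macrophage RNA in this value was not tested. Of 22 immediate early and heat shock genes 5 were higher than in Gzmb+ Cd8+ T cells (Fos, Jun, Junb, Ier5 and Dusp2), with a median of 0.60, and 1 was higher and 3 lower than in Cd44+ Cd4+ T cells. Of 15 genes of amino acid transport, iron uptake and mTORC1 signalling 2 were higher than in Gzmb+ Cd8+ T cells, Myc and Odc1, with a median of 0.59. None of the stress or mTORC1 genes was lower than in that subtype. Over all genes tested, 5.58% were higher and 4.99% lower than in Gzmb+ Cd8+ T cells. Against Cd44+ Cd4+ T cells the shares were 5.48% and 6.86%, and against Foxp3+ Cd4+ T cells 6.56% and 8.58%. Of all genes, 1.27% were higher than in every subtype.

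**Figure D3:**
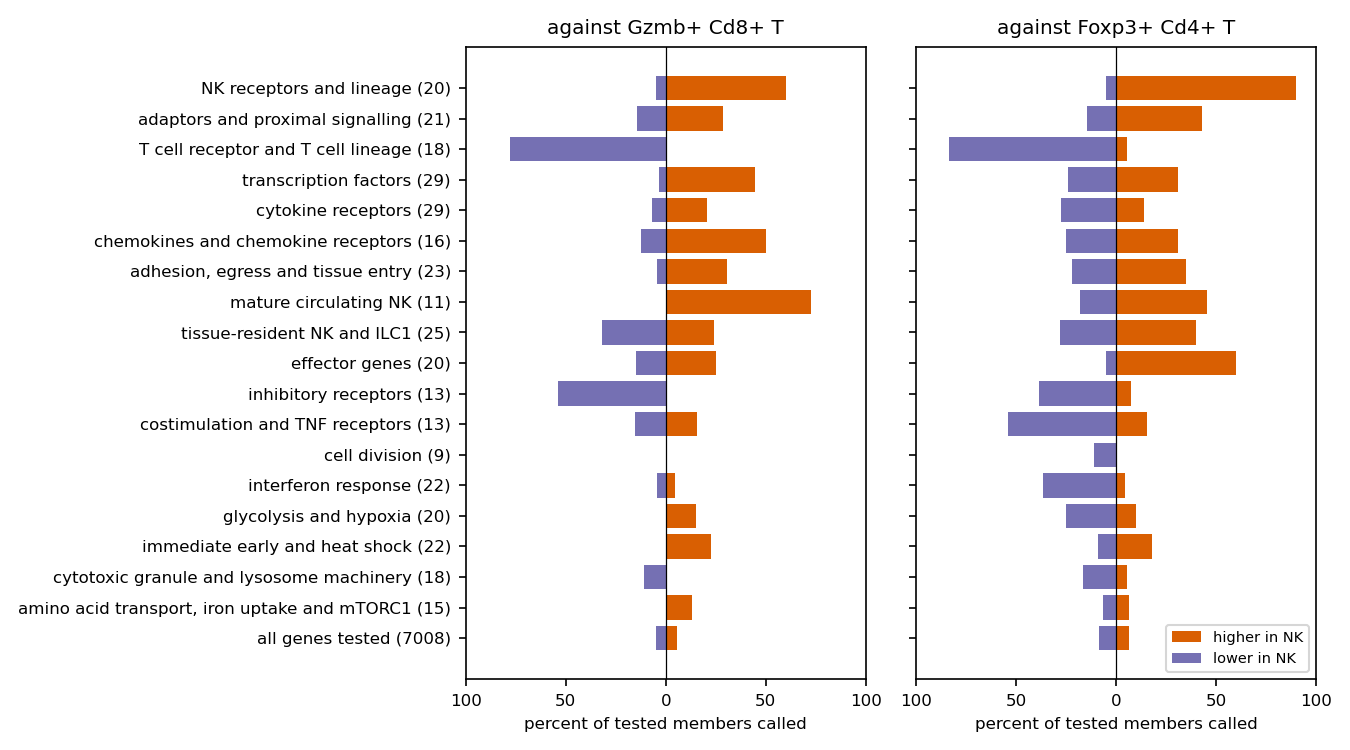
Percent of the tested members of each gene list called higher (right) or lower (left) in NK cells than in Gzmb+ Cd8+ T cells and than in Foxp3+ Cd4+ T cells. NK receptors lie to the right (12 of 20 against Gzmb+ Cd8+) and T cell genes to the left (14 of 18). The number of tested members stands beside each list, and the last bar gives all 7008 genes.

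Several of the genes that stood farthest from all T cells belong to none of these lists. Car2, carbonic anhydrase 2, had 1335, 2104, 1659, 1178, 1673 and 1390 CPM in NK cells and 0 to 159 CPM in T cells, with a nearest difference of 3.82 ± 0.19 (adjusted p = 1.29e-17). Cxxc5, a zinc finger protein that binds unmethylated CpG, had 368, 558, 353, 274, 300 and 343 CPM and at most 41.3 CPM in T cells, with 4.35 ± 0.27. In neither gene did any NK value overlap a T cell value, and macrophages held 2.49 to 7.73 CPM of Car2 and 6.83 to 16.3 CPM of Cxxc5. Arl4d, a small GTPase, had 532 to 817 CPM and a nearest difference of 3.34 ± 0.25. Cited4, a transcriptional coregulator, had 51.8 to 160 CPM and 3.43 ± 0.40.

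Secreted and extracellular proteins were among these genes. Sulf2, a sulfatase that trims heparan sulfate outside the cell, had 68.6 to 175 CPM and a nearest difference of 3.13 ± 0.34. Pdgfa, a growth factor for mesenchymal cells, had 53.2 to 155 CPM and 3.12 ± 0.40, and Adamts14, a procollagen protease, 68.6 to 144 CPM and 2.81 ± 0.34. Spry2, an inhibitor of receptor tyrosine kinase signals, had 506 to 954 CPM and a nearest difference of 2.70. It was chosen for mention after its values had been seen. Atp1b1, a subunit of the sodium pump, was higher than in Gzmb+ Cd8+ T cells by 4.69 ± 0.47 and differed by 0.81 ± 0.32 from Cd44- Cd4+ T cells (adjusted p = 0.0526). Ikzf4 (Eos), known from regulatory T cells, had 1 UMI in all NK cells and was at least 26.5-fold lower than in Gzmb+ Cd8+ T cells over the 5 tumours compared, where NK cells held none.

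The Total libraries of the same tumours, which the rule did not use, allowed a second look. Among their annotated T and NK cells, those with at least 2 UMIs over Ncr1, Klre1 and Klrd1 and none of Cd3d, Cd3e or Cd3g were taken as NK cells. They numbered 61, 19, 37, 31, 30 and 15, against 465 to 2320 cells with a CD3 gene and no UMI of Ncr1 or Klre1. With the gate genes left out, 79 of the 88 higher genes could be tested. Of these, 78 were higher in the gated NK cells and 63 were called, with a median of 1.83, against 2.76% of all 7366 genes tested. Of 65 lower genes tested 63 were lower and 55 were called, with a median of −2.92, against 4.47% of all genes. With this gate no gene was called in the opposite direction, and Ccl4 was the higher gene with the other sign, at −0.59 ± 0.98 (adjusted p = 0.808). A stricter gate of at least 3 UMIs left 32, 3, 15, 17, 14 and 10 NK cells. With it 69 of 73 higher genes tested kept their sign and 51 were called, and Ccl4 was called lower, at −2.84 ± 0.42 (adjusted p = 1.11e-09). Cd9, Itga2 and Klf4 then differed by −0.01, −0.01 and −0.20, so the higher level of these 4 genes was not seen again with that gate. Of the 65 lower genes, 64 were lower with it and 56 were called. With the first gate, of at least 2 UMIs, Car2 differed by 4.77, Cxxc5 by 3.71, Arl4d by 3.46, Irf8 by 3.38 and Tyrobp by 3.15. That gate favours deeper cells: the median was 1333 to 2831 UMIs per gated NK cell and 1139 to 2021 per T cell, and it was higher in the gated NK cells of all 6 tumours. Because the gates select on NK and CD3 genes, other genes expressed along with these are favoured in the same direction. The tumours are also the same, so these counts are not independent evidence for the 2 gene lists.

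NK cells were then compared between tumours by the counting intervals of each gene. Of 6416 genes with at least 20 UMIs, 18 stood apart in 1 tumour (0.281%), which means that the exact Poisson interval lay wholly outside those of the other 5 and that CPM + 10 differed at least 2-fold from the nearest tumour. They were 1 gene in Clone E (0.0156%), 3 in EM1 (0.0468%), 3 in EM3 (0.0468%), 3 higher and 2 lower in M (0.0468% and 0.0312%) and 6 in the parental tumour (0.0935%), and EM2 had none. At low counts the intervals are wide, and only 3304 genes had at least 60 UMIs. The rule also passes over genes that differ between some tumours only, so its small count does not show that the tumours were alike. Among genes higher than in every T cell subtype, Car2 spanned 1178 to 2104 CPM and Irf8 3518 to 5149 CPM. Ncr1 spanned 122 CPM (interval 69.5 to 197) to 242 CPM (170 to 333), with intervals that overlapped in every pair.

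Gzma differed more. Its intervals were 3121 to 3674, 4077 to 4747, 3374 to 3988, 1211 to 1624, 674 to 1051 and 1848 to 2631 CPM. E, EM1 and EM2 thus formed an upper group, and M was lowest. Prf1 was highest in EM2 with 810 CPM (674 to 966) and in EM1 with 799 CPM (664 to 953), and M with 145 CPM (79.1 to 243) overlapped EM3 (204 to 396). Eomes peaked in EM1 with 1786 CPM (1581 to 2010), M had the least with 630 CPM (482 to 809), and the intervals of EM3, M and the parental tumour overlapped. Ccl5 was likewise highest in EM1 and lowest in M, at 13545 and 2438 CPM. In Gzmb+ Cd8+ T cells, Ccl5 was lowest in EM3 at 1773 CPM, so the order of tumours was not the same there.

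Gzmc had another order. It had 2232, 1097, 333, 289, 4318 (3914 to 4752) and 17076 CPM (16032 to 18171), highest in the parental tumour and next in M, and it stood apart in the parental tumour with Gzmd. Few cells carried it, namely 13, 13, 21, 8, 16 and 10 cells in this order, and the single cell with the most UMIs held 23.5% (EM2) to 76.3% (EM3) of all Gzmc UMIs of its tumour. Without that cell in each tumour, Gzmc had 1162, 279, 255, 68.4, 1756 and 4462 CPM, and the parental tumour still stood apart. Gzmd in the parental tumour rested on 151 UMIs in 3 of 38 cells, and 1 cell held 56.3% of them. Its value without the top cell was 1133 CPM and still stood apart. Gzma without its top cell had 2940, 4006, 3482, 1239, 723 and 961 CPM, so that the parental value dropped to less than the EM3 value. This alternative was chosen after the data had been seen.

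Ifng was carried by single cells. It had 322, 558, 131, 7.60, 41.3 and 51.5 CPM, in 3, 5, 7, 1, 4 and 2 cells. The top cell held 96.4% of the UMIs in Clone E and 94.2% in EM1, and without it the values were 11.5, 32.5, 52.3, 0, 31.0 and 17.2 CPM. No order of tumours in Ifng can be read from these cells.

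**Figure D4:**
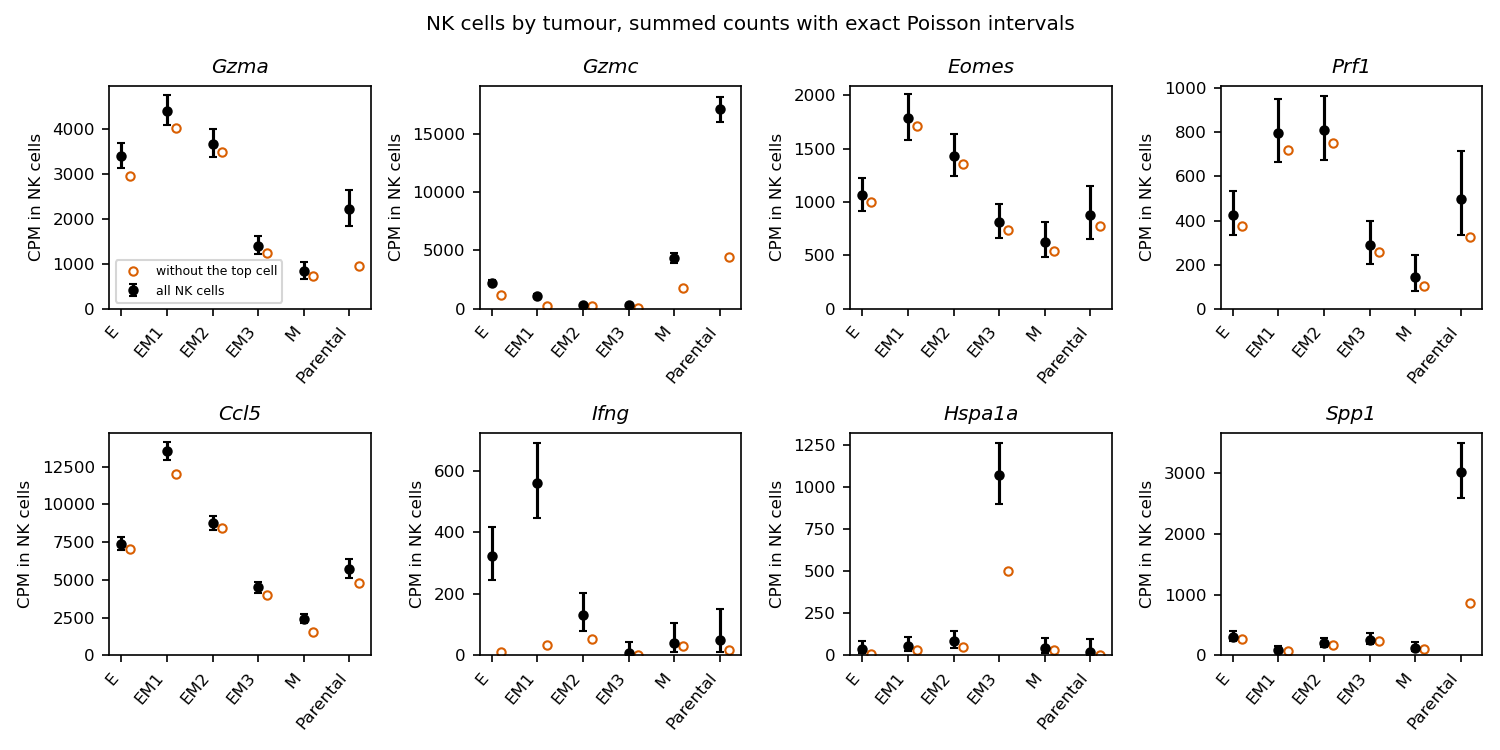
CPM of 8 genes in the NK cells of each tumour with 95% Poisson intervals as error lines. Filled points use all cells and hollow points leave out the cell with the most UMIs of the gene. Gzma is lowest in M at 847 CPM, Gzmc highest in the parental tumour at 17076 CPM, and Ifng in Clone E falls from 322 to 11.5 CPM without 1 cell.

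For several of the 18 genes, values of other cells of the same library are given beside those of the NK cells. Inhba, a subunit of activins, had 247 CPM in NK cells of Clone E and 20.7 to 68.4 CPM elsewhere, while macrophages had 2376 CPM in Clone E and 119 to 886 CPM elsewhere. The antibody genes Igkc and Ighg1 had 474 and 318 CPM in EM1, against 355 and 308 CPM in Gzmb+ Cd8+ T cells and 311 and 280 CPM in macrophages of that library. Apoe and Mmp19 were low in M, at 682 and 10.3 CPM, where Gzmb+ Cd8+ T cells also had their lowest values, 948 and 19.0 CPM. Macrophages held 1274 CPM of Mmp19 in M and 2187 to 7576 CPM elsewhere. Their Apoe was not lowest in M, at 30885 CPM against 24134 to 38352 CPM elsewhere. Spp1 (osteopontin) had 3021 CPM in the parental tumour, with 5082 CPM in macrophages there, and the top cell held 71.6% of its UMIs. The part that RNA from other cells had in these values was not tested.

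The heat shock genes Hspa1a and Hspa1b, near-identical copies, had 1072 and 1003 CPM in EM3, with a nearest tumour at 84.9 and 208 CPM. They came from 10 and 12 of 68 cells, the cell with the most UMIs of each gene held 53.2% and 56.1% of them, and without it the values were 502 and 441 CPM. Gzmb+ Cd8+ T cells of EM3 had 409 and 543 CPM. Epas1, the hypoxia factor HIF-2 alpha, had 868 CPM in M and at most 390 CPM in the other 5, and Gzmb+ Cd8+ T cells had 930 CPM in M against 417 to 583 CPM in the other clones and 1294 CPM in the 8 cells of the parental tumour. Osgin1 and Cables1 had 341 and 331 CPM in M. Cd24a, which granulocytes express at 1336 to 1801 CPM in these libraries, stood apart in EM3 at 190 CPM. Ccl4 in EM1 and Ifitm2, Mt2, Thbs1, Gzmd, Gzmc and Spp1 in the parental tumour completed the 18 genes. Thbs1 in the parental tumour rested on 1 cell with 95.7% of the UMIs. Without the top cells 24 genes stood apart, 12 of them among the 18. Cd24a, Epas1, Mmp19, Ifitm2, Thbs1 and Mt2 no longer did.

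The 2 pairs of tumours that share barcode beginnings were set side by side. In EM3, 36 genes had an interval above that of Clone E with at least a 2-fold difference (0.561%) and 32 were below it (0.499%). The lower ones included Gzma, Gzmc, Ccl4, Ccr7, Klri1 and Inhba, and the higher ones included Hspa1a, Hspa1b, Ctla4 and S1pr4. In EM1, 25 genes lay above EM2 (0.39%) and 21 below it (0.327%). Higher in EM1 were Cd27, Gata3, Klf4, Pdcd1, Fyn and Ccl4. Of the 21 lower, 10 were mitochondrial genes, such as mt-Co2 with 474 CPM in EM1 and 1019 CPM in EM2, and the median mitochondrial share of an NK cell was 0.166% in EM1 and 0.438% in EM2. In macrophages the medians were 0.287% and 0.407%. Without the top cells the counts were 32 and 29 for the first pair and 30 and 24 for the second.

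Single NK cells were last compared after each had been thinned to 1000 UMIs, which left out 6, 58, 58, 5, 4 and 12 shallower cells and kept 83, 74, 74, 63, 45 and 26. A UMI of Gzma was found in 59.0% (95% Clopper-Pearson interval 47.7 to 69.7), 60.8% (48.8 to 72.0), 70.3% (58.5 to 80.3), 38.1% (26.1 to 51.2), 31.1% (18.2 to 46.6) and 34.6% (17.2 to 55.7) of cells. Unthinned shares were 60.7%, 67.4%, 70.5%, 47.1%, 34.7% and 44.7%. The upper 3 tumours were those with the most Gzma CPM. After thinning, the intervals of these 3 lay above that of M. Those of E and EM1 overlapped EM3 and the parental tumour, and that of EM2 did not. Gzmc was found in 10.8%, 13.5%, 17.6%, 7.9%, 31.1% and 26.9%, with M (18.2 to 46.6) and the parental tumour (11.6 to 47.8) highest. The interval of M lay above that of EM3 (2.6 to 17.6), and all other pairs of intervals overlapped. Unthinned shares of Gzmc were 14.6%, 9.8%, 15.9%, 11.8%, 32.7% and 26.3%. Macrophages of the same libraries, with a median of 5217 to 7455.5 UMIs against 1297 to 1855 in the NK cells kept, had a UMI of either gene in at most 0.2% of cells. Gzmb+ Cd8+ T cells had one of Gzma in 0% to 4.6% and of Gzmc in 0% to 4.9%. Both values of 0% are from the parental tumour, where 6 such cells were kept (interval 0 to 45.9). The lowest shares in the other tumours were 1.97% for Gzma and 1.03% for Gzmc. At most 500 macrophages and 500 Gzmb+ Cd8+ T cells, drawn at random, were used per tumour.

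Cells with Gzmc held Gzma to differing extents. Of 9, 10, 13, 5, 14 and 7 thinned cells with Gzmc, 5, 2, 9, 2, 3 and 1 also had a UMI of Gzma. Unthinned, 7, 5, 13, 5, 4 and 2 of 13, 13, 21, 8, 16 and 10 did. EM3 thus changed sides between the 2 counts, on few cells. With at least 2 UMIs of a gene required, 6.02% of cells in Clone E had Gzmc and 1.20% both, so Clone E changed sides as well. The larger part of the Gzmc cells held both genes in EM2 and the smaller part in EM1, M and the parental tumour in each of these 3 counts. Neither gene was found in 24.3% of cells in EM2, the lowest share, and in 57.1% in EM3, the highest. Irf8 was found in 88.0%, 95.9%, 90.5%, 82.5%, 80.0% and 80.8% of cells, against 17.3% to 26.9% of macrophages and 21.1% to 67.5% of Gzmb+ Cd8+ T cells. Car2 was found in 55.6% (EM3) to 74.3% (EM2) of NK cells and in at most 1.2% of macrophages. Eomes was found in 73.0% of EM1 (61.4 to 82.6) and 33.3% of M (an interval that ended at 49.0), with 41.3% to 57.7% in the others. Ncr1, the gene with the largest difference from T cells, had a UMI in only 7.7% to 17.6% of NK cells at this depth and in none of the Gzmb+ Cd8+ T cells or macrophages examined.

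**Figure D5:**
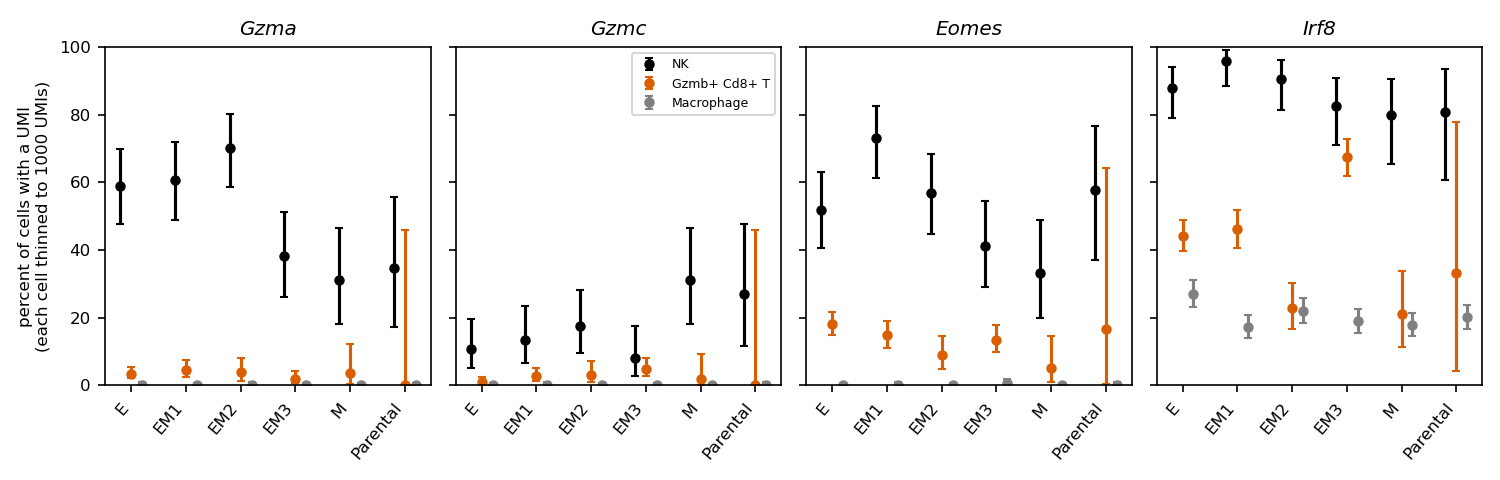
Percent of cells with at least 1 UMI of Gzma, Gzmc, Eomes and Irf8 after thinning to 1000 UMIs, in NK cells, Gzmb+ Cd8+ T cells and macrophages of each tumour, with 95% Clopper-Pearson intervals. Gzma runs from 31.1% in M to 70.3% in EM2, and Irf8 is at 80.0% or more of NK cells in all 6 tumours.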

How the data were processed

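Single-cell RNA sequencing covered a Total and a CD45 library from each of 6 tumours. Reads were processed with Cell Ranger and build mm10, per the submitters' processing notes, and the roles of these and the versions are not given in the sources used here. The values used are raw UMI counts per gene and cell, as deposited by the authors, together with the authors' annotation. The deposited tables also give the mitochondrial content of each cell as a percent and as a fraction of its UMIs. The labels name both a fixed-RNA preparation kit and 3' reagents.

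Members and gene lists were chosen with earlier results of these data known. Doublets were called by a Scrublet-type score, 2804 of 115612 cells (2.43%), and left out. Counts were summed per tumour and class, for sums of at least 10 cells, so the parental Gzmb+ Cd8+ sum (8 cells) was not used. For the fit, genes were kept by edgeR's filterByExpr with class as the group. The minimum of 20 UMIs applied only to the comparison of NK cells between tumours. The 35 sums were fitted in 1 model with tumour as a block by edgeR 4.0.16 (R 4.3.3, TMM scaling, quasi-likelihood test, Benjamini-Hochberg adjustment), since each tumour gave all classes and the pairing comes from the design. All adjusted p-values are from edgeR. Each value after ± is the size of the log2 difference divided by the square root of its F statistic. It is an approximate SE and holds no information beyond the test. In data simulated for NK cells against Gzmb+ Cd8+ T cells (6631 genes), 47 of 100 genes changed 2-fold and 97 of 100 changed 4-fold were called, and 1 of 6439 unchanged genes was. A 2-fold change lies at the limit of the call itself, so many such genes must miss it. The simulation gave all genes the same spread, with no tumour effect and no single cells that hold most UMIs of a gene. Its share of false calls therefore need not hold for the real sums. Intervals of CPM are exact Poisson and those of shares exact Clopper-Pearson, both at 95% and for counting error only. Python 3.11.15 and scipy 1.17.1 were used.

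Genes are named by rule: the 15 highest and 10 lowest against every subtype, and the 10 highest and 10 lowest against Gzmb+ Cd8+ T cells, with a mean of at least 50 CPM in the higher class, up to 5 that stood apart per tumour, and members of the lists with large changes or well known. Alternatives were DESeq2 1.42.0, no TMM, no filter, other cell sets, no block, each tumour left out, and other depths of thinning. Some members of the lists are not reported here by name.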

Additional observations from a re-analysis of the deposited data

Results flagged for a closer look

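For the named genes, the difference between NK cells and the mean of the T cell sums was computed in each tumour as log2(CPM + 10), and a tumour far from the other 5 by Dixon's ratio was noted. The parental mean covers 4 T cell subtypes, without Gzmb+ Cd8+ T cells, and the other tumours' means cover 5, so the parental values of Adamts14 and Slamf1 are not measured against the same cells. Chance alone puts about 1 in 20 groups past the 95% limit of that ratio. Adamts14 was closest to T cells in the parental tumour, where NK cells were 2.571 higher, against 3.149 to 3.458 in the other 5 (ratio 0.652). Trbv19, a T cell receptor segment, differed by −2.098 in Clone E and by −3.977 to −4.556 elsewhere (ratio 0.765). Slamf1 differed by −1.944 in the parental tumour and by −2.895 to −3.423 elsewhere (ratio 0.643), with no UMI in NK cells of any tumour, so that this difference moved with the T cell level. The direction was the same in all 6 tumours for each of these genes.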

How the results depend on the processing

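Fitting only the 2 classes compared leaves fewer sums and filters the genes anew, and 16 of the 38 genes named against T cells had a value. This fit gave 217 higher and 169 lower genes against Gzmb+ Cd8+, 129 and 109 against Lef1+ Cd8+, 229 and 238 against Cd44+ Cd4+, 353 and 282 against Cd44- Cd4+, 257 and 356 against Foxp3+ Cd4+ T cells, and 48 and 26 against every subtype. Without the filter on low counts, 561 genes were lower than in Gzmb+ Cd8+ T cells and 142 higher than in every subtype. Without TMM the median of all genes moved from −0.01 to −0.11 against Cd44- Cd4+ T cells, and lower genes outnumbered higher ones in 3 comparisons where they had not, with 351 higher and 401 lower against Gzmb+ Cd8+, 245 and 322 against Lef1+ Cd8+, and 579 and 593 against Cd44- Cd4+ T cells. With no replicate block for the tumour, 86 genes were higher and 68 lower than in every subtype, 83 and 67 of them shared with the blocked fit, and DESeq2 gave 87 and 70, 81 and 66 of them shared. Leaving out 1 tumour gave 350 to 430 higher and 322 to 405 lower genes against Gzmb+, 243 to 298 and 235 to 285 against Lef1+, 380 to 414 and 448 to 493 against Cd44+, 619 to 685 and 498 to 555 against Cd44-, 439 to 507 and 586 to 618 against Foxp3+, and 92 to 109 and 59 to 70 against every subtype.

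Taking the finer annotation column alone adds 331 cells with myeloid labels. It gave 846 higher and 532 lower genes against Gzmb+, 761 and 468 against Lef1+, 817 higher against Cd44+, 1080 against Cd44-, 878 against Foxp3+, and 435 higher and 117 lower against every subtype, with 42 of the 89 and 51 of the 73 genes shared. The higher share of calls moved from 44.4% to 57.1% (Cd44+), 51.1% to 61.9% (Lef1+) and 43.4% to 54.9% (Foxp3+). Then 78 genes stood apart between tumours, and NK cells with these additions made up 1.405%, 2.08%, 2.63%, 0.912% and 1.46% of the CD45 library for Clone E, EM1, EM2, EM3 and Parental 4T1. With a minimum of 650 genes per cell the share in M was 1.03%, and the intervals of EM1 and EM2 no longer lay above all others.

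Thinning to 2000 UMIs leaves few cells. It gave Gzmc in 28.1% and both granzymes in 15.6% of cells in Clone E, Gzma in 37.5%, Gzmc in 50% and both in 0% in EM1, 57.1%, 42.9% and 28.6% in EM2, both in 11.5% in EM3, Gzmc in 61.5% and both in 23.1% in M, and Gzma in 12.5% and Gzmc in 62.5% in the parental tumour. Requiring 2 UMIs gave both in 1.20% in Clone E, Gzma in 52.7%, Gzmc in 9.46% and both in 5.41% in EM2, Gzmc in 1.59% and both in 0% in EM3, and Gzmc in 17.8% in M. The order of tumours in Gzmc shares is therefore not settled at this depth. None of the 38 genes named against T cells reversed its direction in an alternative that gave it a value in the CD45 libraries.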

Other observations

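Igha, the constant region of IgA, was among the genes higher than in every T cell subtype, with 115, 12.99, 71.9, 68.4, 134 and 51.5 CPM in the NK cells of the 6 tumours. The 331 cells called NK in the finer annotation column only had a median of 2399 to 3850 UMIs per tumour. The 12 library pairs outside the shared barcode beginnings that had whole barcodes in common shared at most 1.887% of them.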
